A study of Mus musculus with 12 samples.

Results

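The 33 genes described here are genes that astrocytes express at rest or raise when they become reactive. They were chosen by name from general knowledge of the cell type, with earlier results of these data known. All 33 were found among the 41091 gene IDs of the count tables of mouse hippocampal slices. By role, 3 act in glutamate uptake and recycling, 6 in gap-junction coupling and in ion and water balance, 7 are other genes of astrocyte identity, 7 encode secreted or matrix proteins, 3 encode intermediate filaments and 7 are markers of reactive astrocytes. Total RNA was sequenced after ribosomal RNA depletion from acute slices of wild type C57BL/6 male mice 2 to 3 months old, with the dentate gyrus trimmed away. Chemical long-term potentiation (LTP), a lasting strengthening of synapses, was induced by 50 uM forskolin, which activates adenylyl cyclase, followed by forskolin with 30 mM KCl and 10 mM calcium. The treatment took 10 min in all, control slices received 0.2% DMSO for the same 10 min, and slices were frozen 1 hr or 3 hr later. The 4 groups of 3 libraries are named by time and treatment (1 hr or 3 hr, control or LTP), and the slices of an animal were divided between LTP and control. Nothing in the design isolated astrocytes: each library held RNA of all cells of several slices of 1 animal, so fewer cells of a type and less RNA per cell cannot be told apart.

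Astrocytes take up synaptically released glutamate through the transporters GLT-1 (Slc1a2) and GLAST (Slc1a3) and convert it to glutamine with glutamine synthetase (Glul). They are coupled into networks by connexins, buffer water and ions at their endfeet, and secrete proteins that act on synapses and matrix. After injury or inflammatory signals they become reactive, which is known to involve intermediate filaments such as GFAP and signals of the interleukin-6 cytokine family that act through gp130 receptors and STAT3.

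The library totals ran from 37118382 to 50815001 counts, so 3 counts corresponded to 0.059 to 0.0808 CPM (counts scaled to library size with TMM factors). The immediate early gene Arc was higher in LTP than in control slices by 1.99 (log2, SE 0.08) at 1 hr and by 1.30 (SE 0.06) at 3 hr. This is no independent check of the labels, because the study sequenced samples in which Arc had risen by qPCR. One library, 1 hr control replicate 2, stood apart in the study's clustering and was set aside there, and it was left out of the tests here. Among the astrocyte genes it gave 94.1 CPM of Fgfr3 against 72.7 and 70.3 in the other 1 hr controls, and 91.9 CPM of Luzp2 against 114 and 122. In both genes it lay towards the 3 hr controls. Over the 33 genes it lay outside the other 1 hr controls in 26, in 21 of them towards and in 5 away from the mean of the 3 hr controls, as in Apoe (1426 CPM against 1223 and 1188, with 1072 to 1163 in 3 hr controls). These counts were not taken over all genes, so they show nothing particular to the 33. Another library, 3 hr LTP replicate 3, also stood apart from its group and was kept in the tests. Its chi-square per degree of freedom against the other 3 hr LTP libraries was 44.0 and 85.6, against 24.1 between the other two, while 1 hr control replicate 2 gave 47.0 and 63.3 against 10.2. Without 3 hr LTP replicate 3, Osmr (0.42, adjusted p = 0.0252 with edgeR), Id3 (-0.41, 0.0567) and Sox9 (-0.40, 0.0612) were called for LTP against control at 3 hr. The values of both are printed below with the others, and calls of the 33 genes that change with either library are named.

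Later paragraphs turn on Steap4, S1pr3 and Osmr, which were higher at 3 hr than at 1 hr in both treatments, and on Id3, which was also higher at 3 hr but at 3 hr was lower in LTP slices than in controls. Upstream sequence is shown for Steap4 and S1pr3, the reactive genes that differed most between the time points. Windows were the 250 bases before the transcription start from RefSeq (GRCm38.p6). GENCODE M21 places some starts elsewhere: the windows of Osmr and Id3 lay wholly inside the gene as annotated there and are not shown, and the last 15 bases of the Steap4 window were left out for the same reason. The S1pr3 window ends at base 51408617, whereas GENCODE M21 starts that gene at base 51408639, so its start also differs between the annotations. The sequences are written 5′ to 3′ on the gene's strand. Capitals mark matches to the motifs searched, on either strand: a STAT motif (TTCNNNGAA), an AP-1 motif (TGANTCA), a CRE (TGACGTCA, the CREB binding motif) and the shorter CRE core TGACG, which lies within the full CRE. The motifs were chosen with results of these data known.
Steap4: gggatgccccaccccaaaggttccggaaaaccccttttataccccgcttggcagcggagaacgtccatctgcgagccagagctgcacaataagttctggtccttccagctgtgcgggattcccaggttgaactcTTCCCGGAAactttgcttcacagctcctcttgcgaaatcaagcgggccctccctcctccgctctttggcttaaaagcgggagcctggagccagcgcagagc
S1pr3: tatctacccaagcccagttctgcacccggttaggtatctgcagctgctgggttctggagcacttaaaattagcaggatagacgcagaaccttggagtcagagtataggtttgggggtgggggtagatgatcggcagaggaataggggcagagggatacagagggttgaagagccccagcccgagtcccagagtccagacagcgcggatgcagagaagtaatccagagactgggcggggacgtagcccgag

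The Steap4 window lies on the plus strand at chr5:7960222-7960456 as shown, and the S1pr3 window on the plus strand at chr13:51408368-51408617. The Steap4 window held a STAT match, TTCCCGGAA, 116 to 108 bases before the RefSeq start. The S1pr3 window held no match to these letters. Windows were at hand for 27 of the 33 genes, 33 windows in all. The STAT motif occurred in 3 of these 33 windows (of Acsbg1, Slc1a3 and Steap4) and in 7.02% of 32851 windows of all genes. The AP-1 motif occurred in 2 (Cp and Gja1) and in 6.75% of all windows, the full CRE in 0 and in 1.55%, and the CRE core in 3 (Gja1, Id3 and Slc1a3) and in 17.8%. The Id3 match lies upstream of the RefSeq start only, as that window is inside the gene in GENCODE M21. A match is a description of letters and not a measured binding site.

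The levels of the genes spanned a wide range. Per kilobase of annotated exon, the mean over the 11 libraries used in the tests was highest for Sparcl1, which encodes the synapse-modifying protein hevin, at 665 CPM per kb, followed by Glul at 571 and Apoe, the main lipid carrier of the brain, at 530. The ranges of these 3 genes over the 12 libraries overlapped (538 to 798, 544 to 604 and 468 to 667 CPM per kb), so their order is not fixed. Slc1a2 (232 CPM per kb) and Clu (212), the chaperone clusterin, formed the next pair with overlapping ranges, and Gfap (109) and Slc1a3 (97.3) the one after. At the low end stood Steap4 (0.825), Chrdl1 (0.553), Lcn2 (0.491) and C3 (0.203 CPM per kb). Levels per kilobase rest on the exon annotation of GENCODE M21, and the study's text speaks of reads in coding regions, so the length that was counted is uncertain. Lcn2 and C3, markers of strong reactivity, had between 16 and 89 and between 12 and 70 raw counts per library.

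The steadiest genes varied little over all 12 libraries: the highest value of Glul was 1.11 times the lowest, that of Gpc5, a cell-surface heparan sulfate proteoglycan, 1.17 times and that of Clu 1.2 times. The least steady were Steap4 (8.89 times), C3 (6.04 times) and Lcn2 (5.51 times). The heat map gives every gene by library, with colours that end short of the highest values of Steap4.

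**Figure D1:**
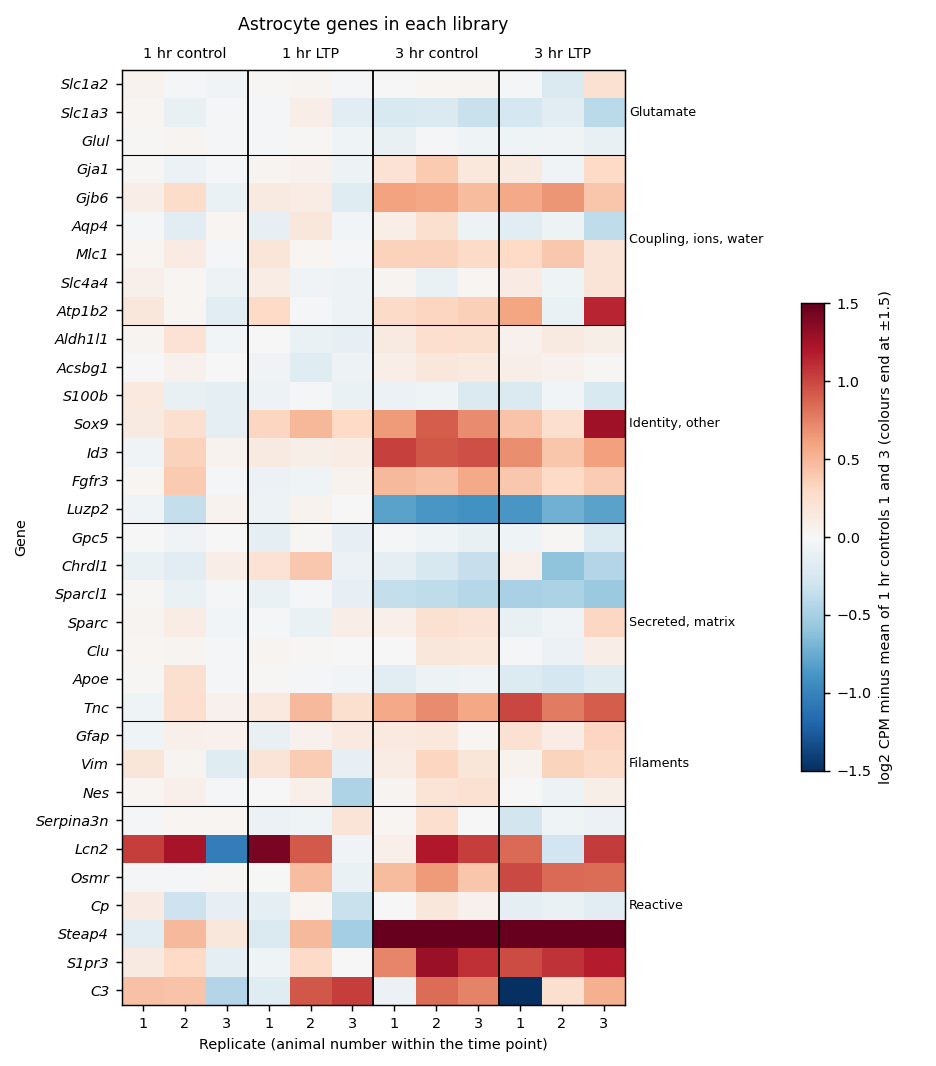
Each row is 1 of the 33 genes, grouped by role, and each column 1 of the 12 libraries. Colour gives log2 CPM minus the mean log2 CPM of 1 hr control replicates 1 and 3, with colours ending at ±1.5. Steap4, S1pr3, Id3, Tnc and Osmr are red and Luzp2 and Sparcl1 blue in the 6 libraries of 3 hr, whereas Glul and Gpc5 stay pale throughout.

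The first comparison asked which of these genes differed between LTP and control slices 1 hr after treatment. With the quasi-likelihood test of edgeR on 5 libraries, 0 of 33 were called at an adjusted p under 0.1 (Benjamini-Hochberg over all genes tested) and a fold change over 1.2, where 0.789% of 17736 genes were called. DESeq2 and limma-voom also called 0 of the 33. At an unadjusted p under 0.05 there were 2 of the 33 (6.06%), against 6.71% of all genes, and the lowest adjusted p among the astrocyte genes was 0.391. The median log2 fold change of the 33 was 0.02, beside 0.00 over all genes, and the groups did not overlap for 5 of them (15.2%), against 22.6% of all genes. For 29 of the 33 the whole 95% interval of the difference lay within a 1.5-fold change either way.

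Glutamate handling was close to even at 1 hr. In the order of replicates 1, 2 and 3, which holds for all values below, Slc1a2 stood at 3129, 2986 and 2917 CPM in the 1 hr controls and at 3054, 3109 and 2954 CPM in the 1 hr LTP slices, a difference of 0.02 (log2, 95% interval -0.11 to 0.15). For Slc1a3 the 1 hr controls gave 936, 851 and 903 CPM and the 1 hr LTP slices 910, 986 and 815, a difference of -0.01 (interval -0.18 to 0.15). The values of the groups are interleaved in both genes. Glul differed by -0.01 (interval -0.14 to 0.12).

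Among the genes for coupling, water and identity, the same held for the defining ones. Gja1, which encodes connexin 43, gave 225, 210 and 220 CPM in 1 hr controls and 229, 233 and 212 in 1 hr LTP slices, and the water channel gene Aqp4 gave 254, 230 and 264 against 238, 292 and 252. Aldh1l1, the folate enzyme gene used as a general astrocyte marker, gave 59.7, 67.7 and 56.5 CPM in controls and 57.9, 54.3 and 53.2 in LTP slices. All 3 sets overlap once 1 hr control replicates 1 and 3 alone are compared with the LTP slices, and their differences were 0.02 (SE 0.07), 0.02 (SE 0.08) and -0.07 (SE 0.08).

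The largest leanings at 1 hr that the SE could resolve were in Sox9, a transcription factor of the astrocyte lineage, and in Tnc, which encodes the matrix protein tenascin-C. Sox9 was at 10.7, 11.6 and 8.95 CPM in 1 hr controls and at 12.3, 13.8 and 12.1 in 1 hr LTP slices, all LTP values lying above all control values. Its difference was 0.38 (SE 0.12, adjusted p = 0.391 with edgeR) and did not pass the test. Tnc was at 10.7, 13.3 and 11.7 CPM in 1 hr controls and at 12.4, 15.7 and 13.2 in LTP slices, where the control set aside lay among the LTP values, and its difference was 0.31 (SE 0.12, adjusted p = 0.640). The reactive markers were not called either. Gfap was at 409, 450 and 444 CPM in 1 hr controls and 396, 447 and 469 in LTP slices (0.05, SE 0.08), and Serpina3n, a serine protease inhibitor, at 51.7, 53.8 and 53.6 against 49.6, 50.3 and 60.1 (0.03, SE 0.09).

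The reactive genes Lcn2, C3 and Steap4 had wide intervals. Lcn2, which encodes the secreted siderophore-binding lipocalin-2, read 1.60, 1.84 and 0.379 CPM in 1 hr controls and 2.09, 1.48 and 0.752 in 1 hr LTP slices, so the libraries of a group differed more than the groups did. The complement gene C3 read 1.08, 1.08 and 0.592 CPM in controls and 0.704, 1.53 and 1.65 in LTP slices. The 95% intervals ran from -0.49 to 1.61 for Lcn2 and from -0.19 to 1.48 for C3. Steap4 read 0.801, 1.26 and 1.02 CPM in controls and 0.777, 1.27 and 0.635 in LTP slices. Its difference was -0.03 (SE 0.35), with a 95% interval from -0.78 to 0.73.

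At 3 hr the same question gave 2 called genes of 33 (6.06%), 1 in each direction, where 6.60% of 17508 genes were called, 5.07% higher and 1.53% lower in LTP slices. The share of the astrocyte genes called was thus near that of all genes. The median of the 33 was -0.04, beside 0.00 over all genes, and 12 leaned higher and 21 lower. The groups did not overlap for 9 of the 33 (27.3%), against 27.0% of all genes, and 2 of these 9 were higher and 7 lower in LTP slices. Neither split by direction was computed over all genes, so no lean particular to the 33 can be read from them.

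Osmr (chr15:6813577-6874969), the receptor chain that pairs with gp130 to bind oncostatin M, was the gene that rose. It read 66.8, 75.0 and 64.2 CPM in the 3 hr controls and 96.0, 86.6 and 86.2 CPM in the 3 hr LTP slices. The lowest LTP slice stood above the highest control. The group means were 68.6 ± 5.64 and 89.6 ± 5.52 CPM (SD, n = 3 each), and the edgeR difference was 0.40 (log2, SE 0.08), a 1.32-fold rise with an adjusted p of 0.0299. At 1 hr, Osmr had read 47.6, 47.8 and 48.7 CPM in controls and 48.3, 66.6 and 44.9 in LTP slices, where 1 LTP slice was high and the others were within or below the controls. The call at 3 hr was lost without 3 hr control replicate 1 (adjusted p = 0.142), without 3 hr control replicate 3 (0.115) or without 3 hr LTP replicate 1 (0.132) in edgeR, with a difference of 0.34 to 0.38 in these fits.

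Id3 (chr4:136143497-136145755), an inhibitor of basic helix-loop-helix transcription factors that responds to BMP signals, was the gene that fell. It read 17.6, 16.5 and 16.8 CPM in 3 hr controls and 14.0, 11.5 and 13.2 in 3 hr LTP slices, with no overlap. The difference was -0.38 (SE 0.09, adjusted p = 0.0575 with edgeR), or 0.767-fold. At 1 hr its levels had been 8.34, 10.96 and 8.91 CPM in controls and 9.43, 9.17 and 9.33 in LTP slices, a difference of 0.12 (SE 0.12). The change of the LTP effect from 1 to 3 hr, tested as an interaction, was -0.50 (SE 0.13) with an adjusted p of 0.396, so it did not pass. The call of Id3 at 3 hr was lost in edgeR without each of the 3 hr controls in turn (adjusted p = 0.216, 0.202 and 0.157) and without 3 hr LTP replicate 1 (0.105). Over all 17 alternatives its difference ran from -0.45 to -0.30.

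With the animal as a replicate block, which pairs the LTP and control slices of an animal, 4 of the 33 genes were called at 3 hr in edgeR: Osmr (0.40, adjusted p = 0.0181) and Tnc (0.29, 0.0978) higher, and Id3 (-0.39, 0.0280) and Aqp4 (-0.28, 0.0220) lower. The same fit called 9.49% of all genes. Tnc and Aqp4 did not pass in edgeR without the block, but both were also called without a block by DESeq2, which called 7.60% of all genes, and by edgeR without 3 hr LTP replicate 2, so these calls were not particular to the block. Tnc read 16.6, 18.4 and 16.8 CPM in 3 hr controls and 22.5, 19.2 and 21.05 in LTP slices, with no overlap (0.29, SE 0.09, adjusted p = 0.103). Aqp4 read 277, 305 and 246 CPM in controls and 230, 246 and 199 in LTP slices, each LTP slice lying below the control slice of its animal (-0.28, SE 0.10, adjusted p = 0.152).

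The remaining genes of glutamate uptake, coupling and identity did not pass at 3 hr. Slc1a2 read 3007, 3087 and 3107 CPM in controls and 2980, 2605 and 3553 in LTP slices, and Slc1a3 786, 790 and 732 against 766, 819 and 694, with differences of 0.00 (SE 0.11) and -0.004 (SE 0.08). The spread of Slc1a2 between LTP slices was wide, and 3 hr LTP replicate 3 was the highest of all 12 libraries. The same library was the highest in Sox9 (23.6 CPM, against 13.2 and 11.7 in the other 3 hr LTP slices and 15.3, 18.3 and 16.0 in controls) and in Atp1b2, a subunit of the sodium pump (42.2 CPM, against 28.6 and 17.7, and 23.2, 23.8 and 24.3 in controls). Without that library the difference of Sox9 was -0.40 and was called (adjusted p = 0.0612 with edgeR), whereas with it the difference was -0.02 (SE 0.23). For Atp1b2 the difference was 0.32 (SE 0.25), -0.03 without 3 hr LTP replicate 3, and 0.59 without 3 hr LTP replicate 2, where it was called (adjusted p = 0.0249).

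Gja1 read 259, 291 and 248 CPM in 3 hr controls and 245, 214 and 275 in LTP slices (-0.11, SE 0.10), and Aldh1l1 64.0, 69.0 and 68.9 against 60.7, 64.0 and 61.7 (-0.10, SE 0.06). The intermediate filament genes were not called: Gfap read 472, 474 and 435 CPM in controls and 500, 461 and 532 in LTP slices (0.13, SE 0.07), while Vim (vimentin) and Nes (nestin) differed by 0.03 (SE 0.09) and -0.15 (SE 0.08). Serpina3n read 53.5, 62.8 and 52.3 CPM in controls and 43.6, 50.2 and 49.4 in LTP slices, all LTP slices lying lower (-0.22, SE 0.09, adjusted p = 0.202 with edgeR). Lcn2 (0.822, 1.79 and 1.60 CPM against 1.41, 0.637 and 1.61) and C3 (0.757, 1.44 and 1.34 against 0.273, 0.945 and 1.16) overlapped between groups. Steap4, at 3.63, 5.64 and 4.49 CPM in controls and 3.75, 3.25 and 3.35 in LTP slices, overlapped in its lowest control and did not pass (-0.40, SE 0.17, adjusted p = 0.224 with edgeR), and S1pr3 differed by 0.03 (SE 0.13). For 28 of the 33 genes the 95% interval lay within a 1.5-fold change either way.

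**Figure D2:**
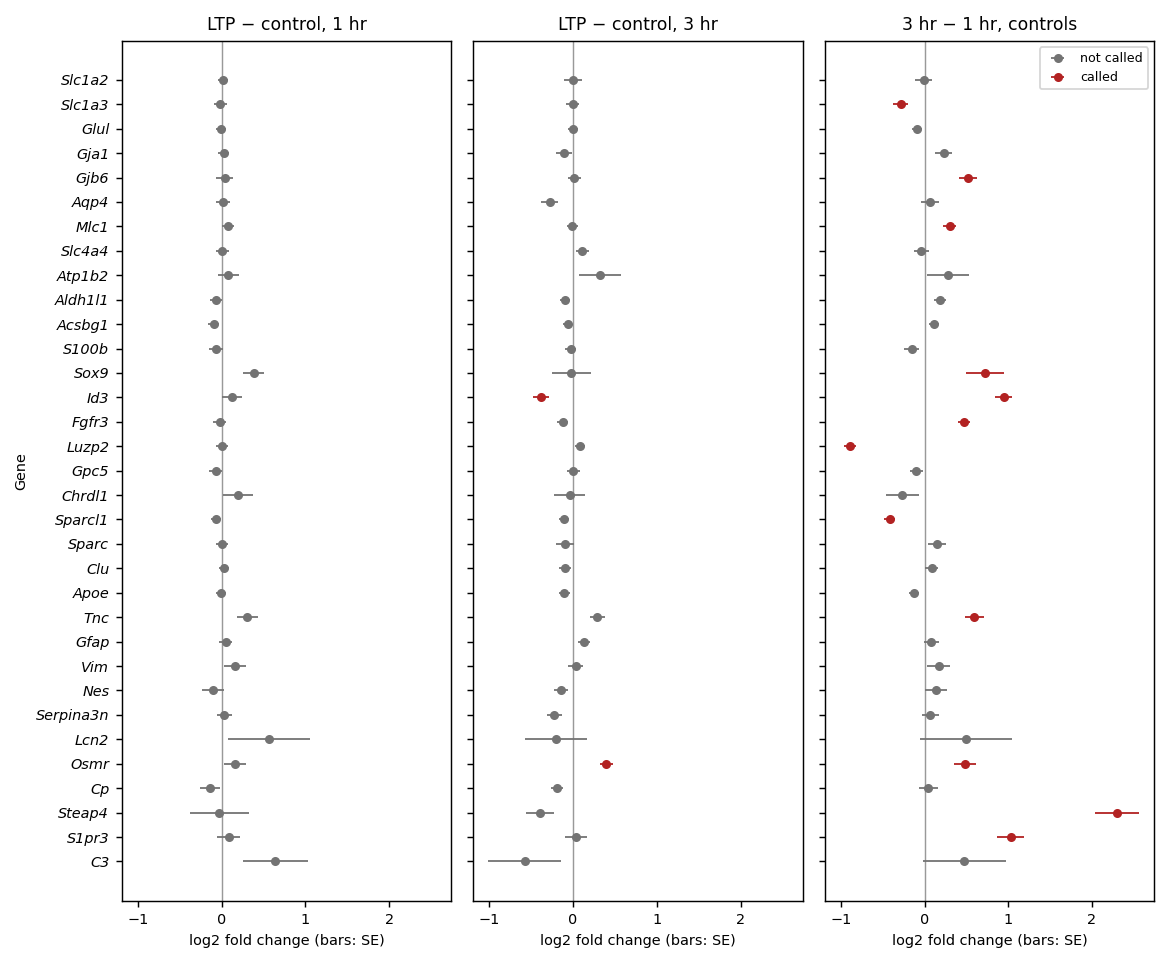
Points give the log2 fold change of each of the 33 genes and bars its SE, for LTP minus control at 1 hr and at 3 hr and for 3 hr minus 1 hr in control slices, on 1 shared scale. Red points are called (adjusted p under 0.1 and fold change over 1.2): 0 genes at 1 hr, Osmr and Id3 at 3 hr, and 12 genes between the time points.

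Whether the LTP effect changed from 1 to 3 hr was tested in the model of the 4 groups with 11 libraries. In edgeR 0 of the 33 genes passed, where 0.0592% of 18584 genes did. DESeq2 and limma-voom also called 0, and 1 of the 33 had an unadjusted p under 0.05 (3.03%, against 6.59% of all genes). A call at 3 hr and none at 1 hr is therefore no tested difference between the time points for Osmr (interaction 0.25, SE 0.18) or Id3.

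The control slices of 3 hr and 1 hr were then compared, which concerns slices that received vehicle alone. Since 1 hr control replicate 2 was set aside, a fit without 1 hr control replicate 1 or 3 has 1 library in that group, which is assumed to vary like the libraries of the other groups. The labels number the animals 1 to 3 at both time points and do not say whether these are the same animals. They were taken as different, so time since treatment, time in the chamber and animal cannot be told apart. In edgeR 12 of the 33 genes were called (36.4%), where 32.8% of 18584 genes were. Of the 33, 9 were higher at 3 hr (27.3%, against 16.1% of all genes) and 3 lower (9.09%, against 16.8%). The median of the 33 was 0.13, beside -0.02 over all genes, and the groups did not overlap for 22 of them (66.7%), against 60.7% of all genes. All 12 called genes also had no overlap when 1 hr control replicate 2 was counted in. The share over all called genes was not computed for this count, so it shows nothing particular to the 12.

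The 3 reactive genes called were Steap4, S1pr3 and Osmr, all higher at 3 hr. Steap4 (chr5:7960457-7982213), a metalloreductase of iron and copper that inflammatory cytokines are known to raise, read 0.801, 1.26 and 1.02 CPM in 1 hr controls and 3.63, 5.64 and 4.49 in 3 hr controls. The lowest 3 hr control was far above the highest 1 hr control. The difference was 2.30 (log2, SE 0.27, adjusted p = 8.39e-05 with edgeR), or 4.92-fold. S1pr3 (chr13:51408639-51422797), a receptor for sphingosine-1-phosphate, read 9.79, 10.9 and 8.08 CPM at 1 hr and 14.8, 21.9 and 19.0 at 3 hr, a difference of 1.03 (SE 0.16, adjusted p = 0.000494). Osmr, with the values given above, was higher by 0.48 (SE 0.13, adjusted p = 0.0149). Both of these genes again kept the time points apart in every control library.

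The other 4 reactive markers did not pass. Gene by gene, Serpina3n differed by 0.07 (SE 0.10), the ferroxidase gene Cp by 0.05 (SE 0.11), C3 by 0.47 (SE 0.50) and Lcn2 by 0.49 (SE 0.55). The value of Lcn2 turned on single libraries: without 1 hr control replicate 1, which leaves replicate 3 as the lone 1 hr control, the difference was 1.89 and was called (adjusted p = 0.0849 in edgeR), and without 1 hr control replicate 3 it was -0.18. The filament genes did not pass either, with 0.08 (SE 0.09) for Gfap, 0.17 (SE 0.14) for Vim and 0.13 (SE 0.13) for Nes. Of the 7 reactive genes, 3 were thus called and 4 were not, where 32.8% of all genes were called.

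Among the identity genes, Id3 was higher at 3 hr by 0.95 (SE 0.10, adjusted p = 6.51e-05 with edgeR), a 1.93-fold difference. Sox9 (chr11:112782224-112787760), at 15.3, 18.3 and 16.0 CPM in 3 hr controls, was higher by 0.72 (SE 0.23, adjusted p = 0.0289), a call lost without 1 hr control replicate 3 (adjusted p = 0.178), where replicate 1 is the lone 1 hr control. Fgfr3 (chr5:33721674-33737068), a fibroblast growth factor receptor of the astrocyte lineage, read 101, 96.8 and 106 CPM in 3 hr controls and was higher by 0.47 (SE 0.07, adjusted p = 0.000406). Another annotated gene, G630022F23Rik, overlaps 13.9% of the Fgfr3 exons, and offsets for GC content and length reduced the difference to 0.24, below the fold minimum. Luzp2 (chr7:54835498-55268885), which encodes a leucine zipper protein enriched in astrocytes, was the gene that fell most, to 67.4, 64.1 and 63.0 CPM at 3 hr. Its difference was -0.89 (SE 0.07, adjusted p = 8.83e-06), or 0.539-fold, and -0.75 with 1 hr control replicate 2 included. Aldh1l1 (0.18, SE 0.07, adjusted p = 0.0541 with edgeR) stayed below the fold minimum, and the annotated gene Gm15756 overlaps 13.4% of its exons. Acsbg1, an acyl-CoA synthetase gene, and S100b, a calcium-binding protein gene, did not pass (0.11, SE 0.06, and -0.15, SE 0.09).

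Of the genes for coupling and ion balance, Gjb6 (chr14:57123303-57133611), which encodes connexin 30, read 42.6, 47.9 and 36.8 CPM in 1 hr controls and 60.3, 59.1 and 54.8 in 3 hr controls. The difference was 0.52 (SE 0.10, adjusted p = 0.00242 with edgeR). Mlc1 (chr15:88955884-88979007), a membrane protein of astrocyte endfeet that acts in volume regulation, read 138, 148 and 132 CPM at 1 hr and 172, 171 and 165 at 3 hr. Its difference was 0.30 (SE 0.07, adjusted p = 0.00840), and 0.25, below the fold minimum, with offsets for GC content and length. Gja1, with the levels given above, leaned the same way by 0.23 (SE 0.10, adjusted p = 0.0931) without reaching the fold minimum, and was called when 1 hr control replicate 2 was included (0.29, adjusted p = 0.0245). Aqp4 (0.06, SE 0.11) and Slc4a4, the sodium bicarbonate cotransporter gene (-0.04, SE 0.09), did not pass, nor did Atp1b2 in the model of the 4 groups (0.28, SE 0.25). Atp1b2 read 21.4, 19.4 and 17.0 CPM in 1 hr controls, below all 3 hr controls, and it was called in a fit of the control libraries alone (0.30, SE 0.10, adjusted p = 0.0228 with edgeR). Leaving out 3 hr LTP replicate 3 alone did not make it a call.

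Secreted and matrix genes went both ways. Tnc (chr4:63959785-64047015), whose 1 hr controls read 10.7, 13.3 and 11.7 CPM, was higher at 3 hr by 0.59 (SE 0.11, adjusted p = 0.00196 with edgeR). Sparcl1 (chr5:104079111-104113733) went down from 2345, 2162 and 2305 CPM to 1820, 1791 and 1721 CPM, a difference of -0.42 (SE 0.06, adjusted p = 0.000419). Its relative Sparc, an antagonist of hevin in synapse formation, did not pass (0.15, SE 0.11), nor did Clu (0.08, SE 0.08), Apoe (-0.13, SE 0.06), Gpc5 (-0.10, SE 0.08) or Chrdl1, a secreted BMP antagonist that acts on synapse maturation (-0.27, SE 0.20). Apoe was called with offsets for GC content and length (-0.44, adjusted p = 0.000346).

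Of the 3 glutamate genes, Slc1a3 (chr15:8634124-8710764) was lower at 3 hr by 0.82-fold (-0.29, SE 0.09, adjusted p = 0.0231 with edgeR), and every 3 hr control lay below every 1 hr control. Of 21 alternatives, 8 lost this call, among them the fit with 1 hr control replicate 2 included (-0.22, adjusted p = 0.0586). Leaving out 1 hr control replicate 1, 1 hr control replicate 3 or 3 hr control replicate 3 also ended it (adjusted p = 0.203, 0.130 and 0.117), the first 2 of these with a lone 1 hr control. Slc1a2 (-0.01, SE 0.10) and Glul (-0.09, SE 0.06) did not pass. The calls of Steap4, S1pr3, Osmr, Id3, Tnc, Gjb6, Luzp2 and Sparcl1 held under all 21 alternatives.

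**Figure D3:**
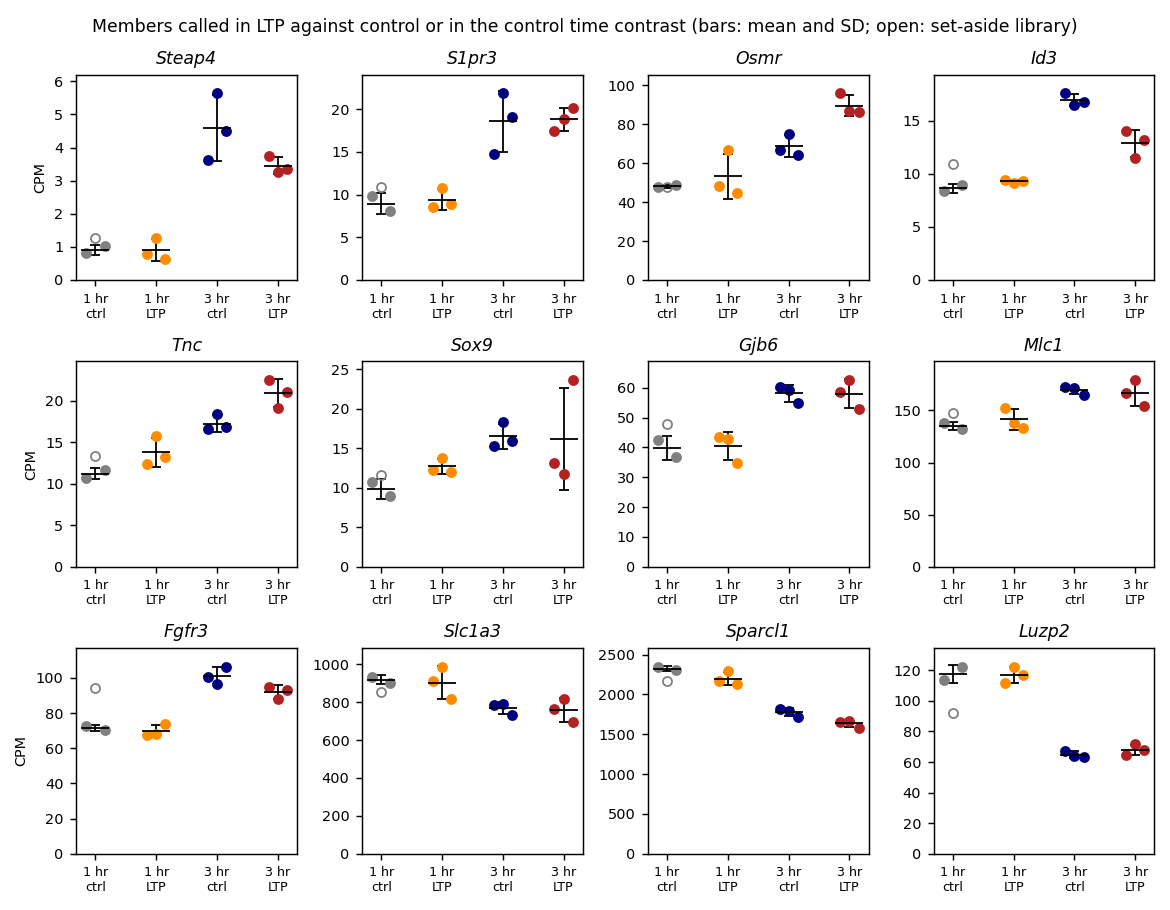
Each panel shows 1 of the 12 genes called in control slices between 3 hr and 1 hr, with CPM on a linear axis from 0 and the 4 groups side by side. Points are libraries, open points are 1 hr control replicate 2, and bars give the mean and SD without that library. Osmr is highest in 3 hr LTP slices (86.2 to 96.0 CPM), and Id3 is highest in 3 hr controls (16.5 to 17.6 CPM).

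The LTP slices of 3 hr and 1 hr share no library with the control slices, although they came from the same animals. In the 6 LTP libraries fitted alone with edgeR, 10 of the 33 genes were called (30.3%, against 34.4% of 17582 genes), 7 higher (21.2%, against 18.5%) and 3 lower (9.09%, against 15.9%). The groups did not overlap for 13 of the 33 (39.4%), against 46.1% of all genes. Of the 12 genes called in controls, 12 went the same way and 9 (75%) were also called in LTP slices. Over all genes called in controls and tested in LTP slices, 96.5% of 5930 went the same way and 69.3% were also called that way. Steap4 read 0.777, 1.27 and 0.635 CPM in 1 hr LTP slices and 3.75, 3.25 and 3.35 in 3 hr LTP slices (1.95, SE 0.24, adjusted p = 0.00102). S1pr3 read 8.50, 10.8 and 8.86 CPM against 17.5, 18.8 and 20.2 (0.99, SE 0.12, adjusted p = 0.000847). Both reactive genes therefore stood apart between the time points in both treatments.

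Luzp2 read 112, 122 and 117 CPM in 1 hr LTP slices and 64.5, 71.5 and 67.6 in 3 hr LTP slices (-0.80, SE 0.07, adjusted p = 0.000270 with edgeR), and Sparcl1 2170, 2292 and 2136 against 1654, 1672 and 1580 (-0.44, SE 0.07, adjusted p = 0.00272). In controls the same differences were -0.89 and -0.42. The difference between time points in LTP slices was 0.74 (SE 0.14) for Osmr, 0.59 (SE 0.11) for Tnc, 0.51 (SE 0.10) for Gjb6, 0.46 (SE 0.10) for Id3 and 0.39 (SE 0.07) for Fgfr3. In LTP slices Gjb6 read 43.5, 42.9 and 34.9 CPM at 1 hr and 58.5, 62.5 and 52.9 at 3 hr, and Fgfr3 67.4, 68.1 and 73.9 against 94.9, 87.8 and 93.4, with no overlap in either gene. Mlc1 read 153, 138 and 133 CPM at 1 hr and 166, 179 and 154 at 3 hr, the lowest 3 hr slice lying just above the highest of 1 hr. Slc1a3 (-0.26, SE 0.10), Mlc1 (0.23, SE 0.08) and Sox9 (0.33, SE 0.23) were not called in LTP slices. Without 3 hr LTP replicate 3, Mlc1 was called (0.28, adjusted p = 0.0323 with edgeR), Chrdl1 was not (-0.43, 0.190), and Sox9 turned to -0.04. The other 9 calls in LTP slices held when any 1 of the 6 libraries was left out. Without 3 hr LTP replicate 2, Atp1b2 (0.80, adjusted p = 0.00246 with edgeR), Sox9 (0.52, 0.0531), Slc1a3 (-0.32, 0.0204) and Aqp4 (-0.29, 0.0397) were called. Slc1a3 was also called without 1 hr LTP replicate 3 (-0.34, 0.0417), and Mlc1 without 1 hr LTP replicate 1 (0.28, 0.0661). Chrdl1 was called in LTP slices and not in controls: it read 4.59, 5.22 and 3.71 CPM at 1 hr and 4.16, 2.59 and 2.90 at 3 hr, overlapping values with a difference of -0.49 (SE 0.20, adjusted p = 0.0912). The call of Chrdl1 was also lost without 1 hr LTP replicate 1, 1 hr LTP replicate 2 or 3 hr LTP replicate 2 (adjusted p = 0.173, 0.272 and 0.183 with edgeR). Its controls read 3.69, 3.54 and 4.22 CPM at 1 hr and 3.59, 3.35 and 3.11 at 3 hr.

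**Figure D4:**
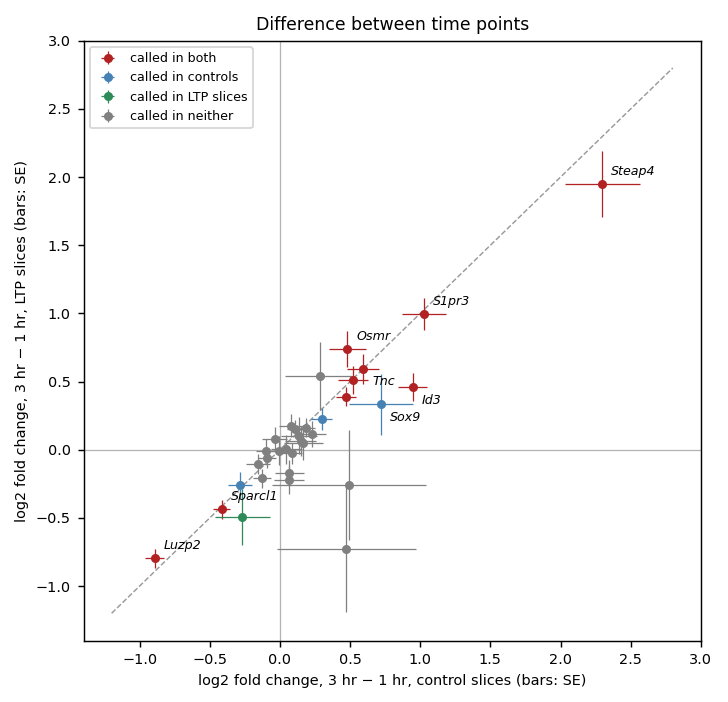
Each point is 1 of the 33 genes, with the log2 fold change between 3 hr and 1 hr in control slices on the horizontal axis and in LTP slices on the vertical axis. Bars give the SE and the dashed line marks equal differences. Steap4 (2.30 and 1.95), S1pr3 (1.03 and 0.99) and Luzp2 (-0.89 and -0.80) lie near the line, Id3 (0.95 and 0.46) lies below it and Osmr (0.48 and 0.74) above it. The interaction test passed for none of the 33.

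Markers of other cell types also differed between the time points in controls, where 16.1% of all genes were higher and 16.8% lower. Of the microglial markers 6 of 8 were lower at 3 hr, with P2ry12 at -1.44 (SE 0.12), and their summed level went from 316 to 342 CPM in 1 hr controls to 237 to 268 CPM in 3 hr controls. Endothelial markers (3 of 5), mural cell markers (3 of 5) and neuronal markers (3 of 8) were lower as well, and 0 members of these lists were higher. Oligodendrocyte markers went the other way in 3 of 6 (Cnp 0.61, SE 0.10), with summed levels of 5872 to 7362 CPM at 1 hr and 7844 to 9502 at 3 hr. The part of these shifts in the astrocyte results was not tested. Neutrophil markers, a blood source of Lcn2, summed to 0 to 0.181 CPM over all libraries, and dentate granule cell markers to 112 to 213 CPM although the dentate gyrus had been trimmed. Between LTP and control slices at 3 hr none of these markers was called in edgeR, and the median differences of the lists ran from -0.64 for the 3 fibroblast markers to 0.10 for the dentate granule cell markers, with -0.09 for the microglial and 0.02 for the oligodendrocyte markers. At 1 hr the medians ran from -0.57 for the fibroblast to 0.64 for the ependymal markers, with -0.41 for the mural, -0.24 for the endothelial and 0.22 for the oligodendrocyte markers. The mural marker Myh11 was lower (-0.68, SE 0.14) and the ependymal marker Ccdc153 higher (0.81, SE 0.17) in LTP slices at 1 hr. The part of these marker differences in the LTP results was not tested either.

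Genes beyond the 33 were read from further lists of astrocyte and cytokine genes. Of 46 other resting astrocyte genes, 1 was higher in LTP slices at 1 hr (Sox2, a progenitor transcription factor, by 0.48, SE 0.09), where 0.789% of all genes were called, and 3 were higher at 3 hr, where 5.07% of all genes were (Fgfr2 by 0.33, SE 0.07, Dio2, the thyroid hormone deiodinase, by 0.37, SE 0.08, and Slco1c1, a thyroid hormone transporter, by 0.28, SE 0.07). Between the time points in controls 11 of the 46 were higher and 3 lower, against 16.1% and 16.8% of all genes, and their median was 0.11. Mt2, a metallothionein, was higher by 0.82 (SE 0.10), Bcan, the proteoglycan brevican, by 0.64 (SE 0.08) and Gpr37l1 by 0.36 (SE 0.06). The 3 lower at 3 hr were F3, which encodes tissue factor (-0.39, SE 0.08), the claudin gene Cldn10 (-0.40, SE 0.10) and Slc39a12, a zinc transporter (-0.27, SE 0.10).

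Among further markers of reactive astrocytes, those called between the time points in controls were all higher at 3 hr, as were 16.1% of all genes. Of 5 markers shared by several injuries, 5 were higher: Cxcl10, an interferon-induced chemokine, by 3.02 (SE 0.38), Timp1, a protease inhibitor, by 1.55 (SE 0.22), Aspg by 1.45 (SE 0.13), the adhesion receptor Cd44 by 1.29 (SE 0.14) and the small heat shock protein gene Hspb1 by 0.43 (SE 0.16). Of the markers known as A1, first described after inflammatory stimulation, 5 of the 11 tested were higher, and of those known as A2, first described after ischaemia, 7 of 12. Between LTP and control slices, 1 of the 5 shared markers, 0 of 11 A1 markers and 1 of 12 A2 markers were called at 1 hr, and 0, 0 and 2 at 3 hr, where 0.789% and 6.60% of all genes were called in edgeR. Those called were all higher in LTP slices. Cxcl10 was higher at 1 hr (1.33, SE 0.19) and did not pass at 3 hr (0.66, SE 0.32). Ptgs2, the inducible prostaglandin synthase that neurons also express, was higher at both times (1.03, SE 0.09, and 0.64, SE 0.07), and Sphk1, the kinase that makes sphingosine-1-phosphate, at 3 hr (0.71, SE 0.10).

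For the pathway around Osmr, 20 genes of gp130 cytokine signalling were listed. In LTP slices, the ligand gene Il6 was higher at 1 hr (1.32, SE 0.20) and at 3 hr (1.31, SE 0.13), and at 3 hr so were Osm, the ligand of Osmr (0.63, SE 0.14), Il11 (0.82, SE 0.20) and the transcription factor gene Stat5b (0.29, SE 0.07), 4 of 20 in all against 5.07% of all genes. Between the time points in controls, 10 of 20 were higher and 0 lower, against 16.1% and 16.8% of all genes. They included the ligand gene Lif (1.33, SE 0.22), the transcription factor genes Stat3 (0.73, SE 0.08) and Stat5a (1.89, SE 0.12) and the feedback inhibitor Socs3 (1.14, SE 0.10). These genes are expressed by several cell types of the slice, and which cells carried the difference was not tested.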

How the data were processed

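The authors deposited raw counts per gene, 1 table per time point, which they made from paired-end reads of ribosomal RNA-depleted stranded total RNA libraries aligned with STAR 2.4.1c to GRCm38/mm10 and counted with Bioconductor packages. Whether the counting used strand is not given in the sources used here, so genes that overlap another gene are uncertain. Of 41091 gene IDs, 40217 matched GENCODE release M21 by the stable part of the ID, and the other 874 stayed in the tests and held at most 1.65% of a library's counts.

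Counts of all genes were tested with edgeR 4.0.16 (R 4.3.3; filterByExpr, TMM, quasi-likelihood F test, Benjamini-Hochberg adjustment), and calls needed an adjusted p below 0.1 together with a change of more than 1.2-fold, except that the interaction had no fold minimum. The time points were fitted separately, without an animal term. The time contrast in controls and the interaction used 1 model of the 4 groups with 11 libraries. CPM used TMM factors over 12 libraries. The scripts were tested on simulated data. Alternatives were DESeq2 1.42.0, limma-voom (limma 3.58.1), other scalings and filters, a replicate block, and leaving out each library. Offsets for GC content and length, and fits of LTP or control libraries alone (the former also without each library), were added after seeing the data.

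The LTP and control libraries of a number come from 1 animal per the labels. Their deviations from the group means correlated by -0.0102, -0.24 and 0.0777 for animals 1, 2 and 3 at 1 hr and by 0.067, 0.00508 and 0.293 at 3 hr. The members, lists and tests were chosen with earlier results of these data known. Genes called in any comparison and a set of defining markers are given in every library, and of other lists up to 4 called genes a comparison are named, save where a list or all its genes in 1 direction are given in full. Arc, a gene the treatment is known to raise, is named outside this rule.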

Additional observations from a re-analysis of the deposited data

How the results depend on the processing

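No gene among the 33 was called for LTP against control at 1 hr or for the change of the LTP effect under any alternative run. At 3 hr, where 2 were called, the count was 1 at an adjusted p under 0.05, 4 with DESeq2, 4 with the replicate block (which pairs the slices of an animal), each adding Tnc and Aqp4, and 0 to 5 when 1 library was left out. The share of all genes called moved as well, from 6.60% to 3.53%, 7.60% and 9.49% in the first 3 of these. The count was 0 without 3 hr control replicate 1 (1.76% of all genes), 3 hr control replicate 3 (2.33%) or 3 hr LTP replicate 1 (1.86%), and 5 without 3 hr LTP replicate 2 (12.2%), so both calls of LTP against control at 3 hr depended on single libraries. For LTP against control at 1 hr and the change of the LTP effect the replicate block changed no call of the 33 genes, and no block was fitted between the time points. Leaving out 1 of the tested 1 hr controls leaves a lone library in that group, which is assumed to vary like the others. Between the time points in controls the count stayed between 10 and 13, with 21.9% to 35.6% of all genes called, and no called gene changed direction. The cause of these shifts was not tested. At this depth the intervals of Lcn2, C3 and Steap4 allow changes of over 1.5-fold in either comparison of LTP with control. For Steap4 they ran from 0.581-fold to 1.66-fold at 1 hr and from 0.585-fold to 0.986-fold at 3 hr. The counts of Lcn2 and C3 were low and also spread widely within groups (Lcn2 had 62 and 16 counts in the tested 1 hr controls, C3 12, 43 and 44 in 3 hr LTP slices). The share of counting error in these intervals was not tested.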
